A study of Rattus norvegicus with 5 samples.

Results

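A set of 40 genes of the interferon response and of antigen presentation was followed in rat hepatic stellate cells treated with calcitriol, written 1,25(OH)2D3 in the labels, the hormonally active form of vitamin D. The 40 genes were taken by symbol from the platform annotation, and a gene counted as detected where a probe of it had a detection p-value under 0.01 on at least 1 array. Of the 40 genes, 37 have a named probe and 26 were detected, against 13337 named genes in the whole series, of which 7051 were detected. The detection rule used no difference between groups, but the 40 genes were chosen with earlier results of these data known.

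Stellate cells store vitamin A in the healthy liver and turn into matrix-producing cells in injury and in culture on plastic. The cells were primary cells of male Wistar rats of 10 weeks. There were 2 arrays of cells treated with calcitriol (100 nM) for 24 h and labelled day 3, 2 arrays of vehicle-treated cells labelled day 3, and 1 array labelled freshly isolated and untreated. The labels do not say whether the 2 arrays of a group came from separate rats or cultures, so a p-value here reflects no more than array-to-array spread, possibly of technical origin. The labels give no purity of the isolated cells.

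Interferons are secreted proteins that warn cells of infection. Type I interferons bind Ifnar1 and Ifnar2 and activate a complex with Stat2 and Irf9 that binds the interferon-stimulated response element (ISRE). Interferon gamma binds Ifngr1 and Ifngr2 and acts on genes that hold a gamma-activated site (GAS). Both routes raise the transcription of antiviral genes and of the class I antigen presentation machinery, in which the immunoproteasome cuts proteins, Tap1 and Tap2 carry the peptides into the endoplasmic reticulum and B2m completes the class I molecule. Stellate cells are known to respond to interferons and have been described as able to present antigen.

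Each array reported 22523 probes, with a median of 40 or 41 beads per probe and a median bead standard error of 4.55% to 4.87% of the signal. Median intensity lay at 114 on both calcitriol arrays, at 119 and 110 on the vehicle arrays and at 121 on the array labelled freshly isolated. Vehicle 2 was the dimmest array, with a mean intensity of 608 against 738 to 855 on the other arrays. Log2 levels, log2 differences and sums below are therefore taken after normalization. Other intensities of single genes are as deposited, and are lowered on vehicle 2 by its dimness. Cyp24a1, which encodes the enzyme that degrades calcitriol and is a classical target of the vitamin D receptor, had intensities of 510 and 591 on the calcitriol arrays and 105 and 84.4 on the vehicle arrays, where it was not detected. On the array labelled freshly isolated and untreated Cyp24a1 was detected, at 382. Over all kept probes that array correlated at 0.990 and 0.989 with the calcitriol arrays and at 0.980 and 0.981 with the vehicle arrays. In this gene the array thus lay nearer to the calcitriol arrays than to the vehicle arrays. Whether it is what its label says was not tested, and comparisons with it are given as comparisons with the array labelled freshly isolated.

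Of the markers of stellate cells, 13 of 16 genes with a named probe were detected, among them Vim, Dcn and Col1a2, and none passed the test between groups. Their summed normalized intensity was 76160 to 84510 on the calcitriol arrays, 75610 to 81200 on the vehicle arrays and 84590 on the array labelled freshly isolated. Gfap, Rgs5 and Ngfr were not detected, and Lrat, Pdgfrb and Acta2 have no named probe. All 15 macrophage and Kupffer cell markers with a named probe were detected, among them Fcer1g, Cd14 and C1qb, with a sum of 93860 to 93940 on the calcitriol arrays, 89190 to 95440 on the vehicle arrays and 97480 on the array labelled freshly isolated. RNA of macrophage genes was therefore present in every group. Only 3 of 14 hepatocyte markers were detected, and Alb was not among them.

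**Figure D1:**
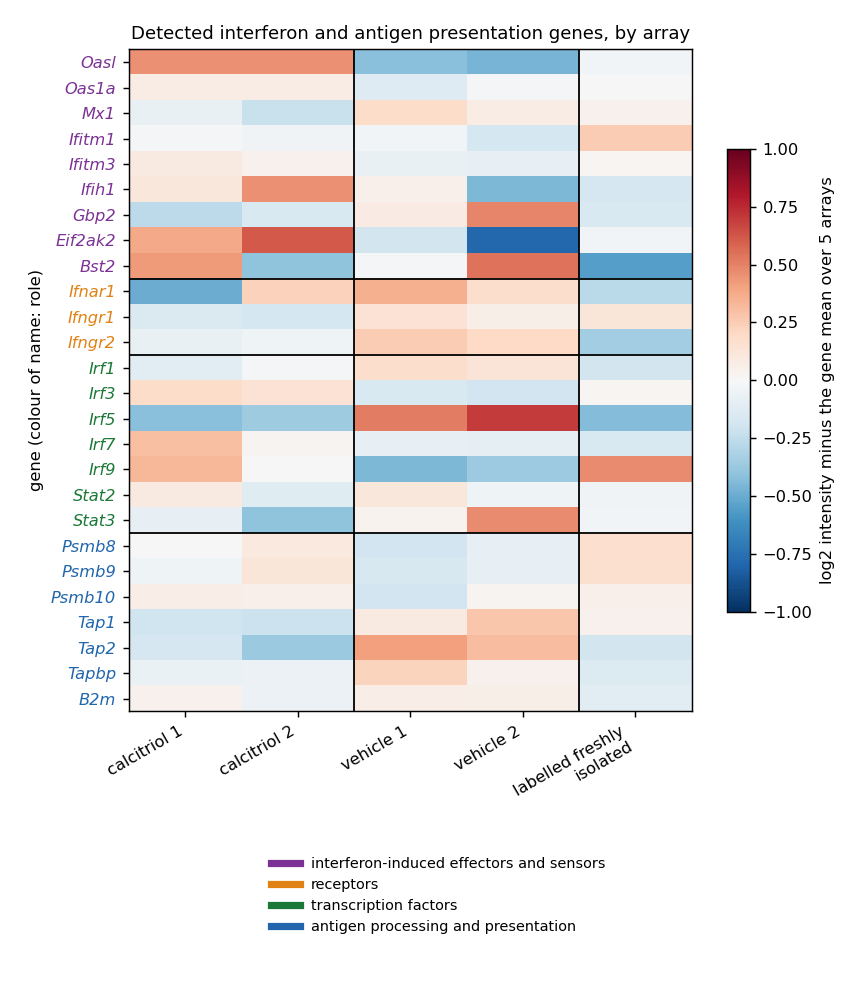
Normalized log2 intensity of each of the 26 detected genes (rows, names coloured by role) on each of the 5 arrays (columns), as the difference from the gene's mean over the 5 arrays. Oasl and Irf5 separate the calcitriol arrays from the vehicle arrays in opposite directions, while B2m hardly varies.

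Interferon-induced effectors split into 2 sets by detection. The 19 effector and sensor genes include 16 with a named probe, and 9 of these were detected: Oasl, Oas1a, Mx1, Ifitm1, Ifitm3, Ifih1, Gbp2, Eif2ak2 and Bst2. Oas1b, Oas2, Mx2, Ifit1, Ifit2, Ifit3 and Isg15 were detected on no array, and Isg20, Ifitm2 and Rsad2 have no named probe. Ifit1, Ifit2, Ifit3 and Isg15, which encodes a ubiquitin-like protein, are among the genes most used as a readout of type I interferon. The transcription factor Irf8 and all 3 genes of the negative regulators, Usp18, Socs1 and Socs3, were not detected either.

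The 11 undetected genes had intensities of 66.9 to 123 over all arrays, with a lowest detection p of 0.0424 (Ifit3 on calcitriol 2). Their median was 93.0 and 93.7 on the calcitriol arrays, 92.4 and 92.9 on the vehicle arrays and 98.6 on the array labelled freshly isolated. The lowest intensity called detected on each array was 143 and 137 on the calcitriol arrays, 146 and 139 on the vehicle arrays and 159 on the array labelled freshly isolated. That all 11 genes lay below the detection level of every array follows from the detection rule that selected them. A probe at this level bounds the RNA it can see, and it does not show that the gene is silent.

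**Figure D2:**
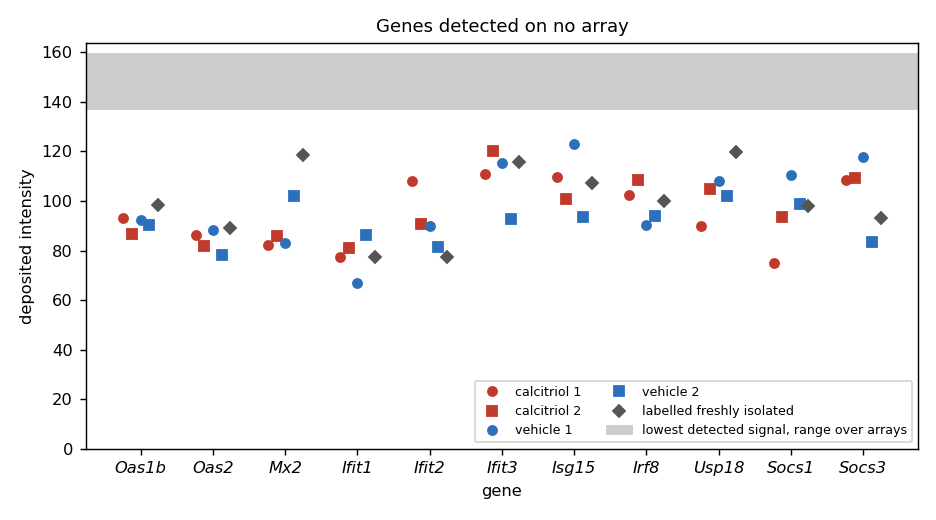
Deposited intensity of the 11 undetected genes on each array, with a grey band for the lowest intensity called detected on an array. All of the genes lie between 66.9 and 123, below the band at 137 to 159, as the detection rule requires.

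Calcitriol was set against vehicle to ask how the vitamin D ligand changes the activated cells. Oasl rose and Irf5 fell with calcitriol, and none of the other 24 detected genes passed the test. That is 1 gene higher, beside 1.17% of all 9737 kept probes, and 1 gene lower, beside 0.657%, with 1 gene being 3.85% of the 26. At an unadjusted p under 0.05 there were 8 of 26 genes (30.8%), beside 15.8% of all probes, 4 of them higher and 4 lower with calcitriol. The median log2 change of the 26 genes was -0.06, with 12 positive and 14 negative, beside 0.0044 over all kept probes. The summed level of the 26 genes was 74240 and 72460 on the calcitriol arrays and 72980 and 73470 on the vehicle arrays.

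Oasl encodes a protein of the oligoadenylate synthetase family that is induced by interferon and by viral infection. Its deposited intensity was 898 and 1019 on the calcitriol arrays, 573 and 431 on the vehicle arrays and 778 on the array labelled freshly isolated. After normalization the log2 levels were 9.75 and 9.75 with calcitriol, 8.88 and 8.84 with vehicle and 9.27 on the array labelled freshly isolated. Both calcitriol arrays stood well above both vehicle arrays, and the array labelled freshly isolated lay between the groups. The log2 change was 0.89 ± 0.13 (SE, n = 2 and 2, 95% interval 0.58 to 1.21), or 1.86-fold, with an adjusted p of 0.0362 by limma. With the replicate number as a block the change was the same size and the adjusted p was 0.0771, and it was 0.0949 to 0.301 when any 1 of the 4 day-3 arrays was left out (0.235 and 0.301 without calcitriol 1 and 2, 0.0949 and 0.123 without vehicle 1 and 2).

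Irf5 encodes an interferon regulatory factor that drives inflammatory cytokines and type I interferon downstream of Toll-like receptors, and it is best known from macrophages, dendritic cells and B cells. Its intensity was 471 and 540 on the calcitriol arrays, 890 and 763 on the vehicle arrays and 544 on the array labelled freshly isolated. The normalized log2 levels were 8.68 and 8.75 with calcitriol, 9.62 and 9.80 with vehicle and 8.67 on the array labelled freshly isolated. Both vehicle arrays stood above all of the other 3 arrays, with no overlap. The log2 change with calcitriol was -0.99 ± 0.14 (95% interval -1.33 to -0.65), 1.99-fold lower, with an adjusted p of 0.035 by limma. With the replicate number as a block the adjusted p was 0.0595, and leaving out any 1 of the day-3 arrays gave 0.0684 to 0.282 (0.24 and 0.282 without calcitriol 1 and 2, 0.0684 and 0.116 without vehicle 1 and 2).

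Among the markers of other cells, Ptprc, the leukocyte surface phosphatase CD45, fell beside Irf5 with calcitriol. Its intensity was 497 and 543 on the calcitriol arrays, 1293 and 756 on the vehicle arrays and 467 on the array labelled freshly isolated, with a log2 change of -1.23 ± 0.18 for calcitriol against vehicle (adjusted p = 0.038). It was the only 1 of the 15 detected macrophage markers that passed, and their summed level did not separate the groups. The lymphocyte and NK cell list had 8 of 15 genes detected and a sum of 1060 to 1228 with calcitriol, 677 to 742 with vehicle and 1079 on the array labelled freshly isolated. In that list Cd69, a lymphocyte activation antigen, had deposited intensities of 251 and 243 with calcitriol and 134 and 101 with vehicle (adjusted p = 0.0191 by limma). Ptprcap, a partner of CD45, had 249 and 281 with calcitriol and 135 and 123 with vehicle (adjusted p = 0.00725). Both genes were undetected on the vehicle arrays. The other 6 genes did not pass: Nkg7 (0.79), Cd8a (0.93), Cd3e (0.24), Prf1 (0.17) and Cd4 (0.07) had positive log2 differences, and Il7r was lower with calcitriol in the fitted mean (-1.24 ± 0.32, adjusted p = 0.152). Cd3d, Cd3g, Cd79b, Ms4a1, Klrd1, Gzmb and Ncr1 were not detected on any array. The dendritic cell list had 2 of 6 genes detected, with a sum of 4497 to 4661 with calcitriol, 5237 to 5560 with vehicle and 3240 on the array labelled freshly isolated, which is nearly all Clec10a (log2 difference of calcitriol against vehicle -0.26, adjusted p = 0.402), while Ccr7 differed by 0.16. The sinusoidal endothelial list had 8 of 9 genes detected and a sum of 5874 to 6170 with calcitriol, 7718 to 8006 with vehicle and 4565 on the array labelled freshly isolated. None of its genes passed, and Fcgr2b had a log2 difference of -0.50 (adjusted p = 0.168). The part of all these cells in the changes of Oasl and Irf5 was not tested, and in bulk RNA fewer cells of a type cannot be told apart from less RNA per cell.

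**Figure D3:**
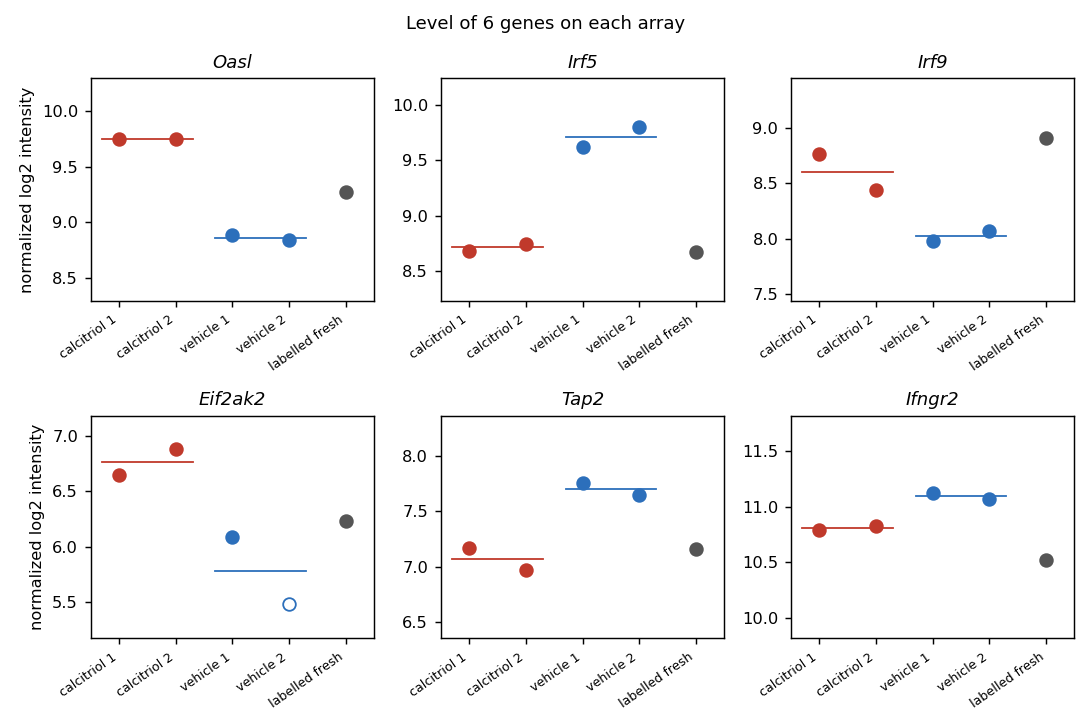
Normalized log2 intensity of 6 genes on each array, with filled points for detected and open points for undetected values and lines at the calcitriol and vehicle means. The span of each vertical axis is the same, and the array labelled freshly isolated lies beside the calcitriol arrays for Irf5 (8.67 against 8.68 and 8.75) and between the groups for Oasl.

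The promoters of Oasl and Irf5, the genes that passed, are shown with those of Eif2ak2, Tap2 and Psmb8, which hold an ISRE core near the start and were picked after their values were seen. Each is a RefSeq window of assembly GRCr8 from 250 bases before to 50 bases after the start of the gene, written in the direction of transcription. Capitals mark the ISRE core, GAAA followed by any 2 bases and a second GAAA, on either strand.
Oasl, chr12:47356243-47356542, minus strand: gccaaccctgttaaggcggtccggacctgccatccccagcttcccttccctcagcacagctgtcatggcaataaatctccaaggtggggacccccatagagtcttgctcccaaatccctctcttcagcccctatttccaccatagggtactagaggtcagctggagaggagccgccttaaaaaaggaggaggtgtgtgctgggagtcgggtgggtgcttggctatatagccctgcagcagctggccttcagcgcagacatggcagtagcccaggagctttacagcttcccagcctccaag
Irf5, chr4:59093205-59093504, plus strand: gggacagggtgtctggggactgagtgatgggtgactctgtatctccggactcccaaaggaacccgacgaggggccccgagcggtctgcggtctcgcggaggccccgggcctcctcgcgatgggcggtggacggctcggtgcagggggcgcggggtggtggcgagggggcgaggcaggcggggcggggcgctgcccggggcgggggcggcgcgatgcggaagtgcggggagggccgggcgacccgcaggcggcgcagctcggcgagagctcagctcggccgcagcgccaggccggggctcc
Eif2ak2, chr6:21940904-21941203, plus strand: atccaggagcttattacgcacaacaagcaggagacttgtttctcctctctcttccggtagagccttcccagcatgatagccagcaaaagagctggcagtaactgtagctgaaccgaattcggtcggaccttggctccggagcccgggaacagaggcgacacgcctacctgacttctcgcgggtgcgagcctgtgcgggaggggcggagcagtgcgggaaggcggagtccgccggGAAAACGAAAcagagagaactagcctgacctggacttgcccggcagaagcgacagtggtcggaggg
Tap2, chr20:4652247-4652546, minus strand: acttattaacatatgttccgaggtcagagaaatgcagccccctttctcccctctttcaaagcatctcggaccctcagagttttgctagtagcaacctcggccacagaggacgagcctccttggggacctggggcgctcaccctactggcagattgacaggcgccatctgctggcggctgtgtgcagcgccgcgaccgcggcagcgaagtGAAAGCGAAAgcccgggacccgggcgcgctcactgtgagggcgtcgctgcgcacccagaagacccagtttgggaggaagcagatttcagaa
Psmb8, chr20:4656982-4657281, minus strand: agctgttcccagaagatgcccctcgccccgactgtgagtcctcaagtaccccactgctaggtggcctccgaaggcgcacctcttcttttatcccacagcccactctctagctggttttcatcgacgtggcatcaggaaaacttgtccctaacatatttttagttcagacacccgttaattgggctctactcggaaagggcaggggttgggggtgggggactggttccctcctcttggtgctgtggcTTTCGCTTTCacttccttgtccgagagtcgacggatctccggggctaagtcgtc
The core began 16 bases upstream of the start in Eif2ak2, 41 bases in Tap2 and 4 bases in Psmb8, where it stands on the opposite strand. The windows of Oasl and Irf5 do not hold these letters, which says nothing on whether interferon-activated factors bind elsewhere.

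Windows were matched for 33 of the 40 genes. The ISRE core was found in 19 of the 33, beside 3.92% of the 33469 promoter windows in the table, and in 13 of the 25 detected genes with a window. The GAS letters TTCNNNGAA were found in 9 of the 33, beside 8.87% of all windows. The letters GNTCA, then any 3 bases, then GNTCA again, were in 0 of the 33, beside 0.983% of all windows. The spacing of these letters is not that of the classical vitamin D receptor element, so this count says nothing on such elements. Motifs were searched on both strands and may overlap one another. The ISRE core is thus present in the windows of genes whose calcitriol levels lay above vehicle (Eif2ak2), below it (Tap2) and undetected (Oas1b, Ifit3, Socs1), though neither Eif2ak2 nor Tap2 passed the test.

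Eif2ak2 encodes the kinase PKR, which senses double-stranded RNA and stops translation. Its normalized log2 levels were 6.65 and 6.88 with calcitriol, 6.09 and 5.48 with vehicle and 6.24 on the array labelled freshly isolated. The calcitriol arrays stood above both vehicle arrays, and the gene was not detected on vehicle 2. The log2 difference of 0.98 ± 0.23 (95% interval 0.41 to 1.55) had an adjusted p of 0.128, and its size depended on the processing. It was 0.50 with no background correction and with the authors' value table, 0.55 with normexp, 0.68 without vehicle 2 and 1.28 without vehicle 1. Ifih1, the RNA sensor MDA5, had log2 levels of 6.71 and 7.05 with calcitriol, 6.65 and 6.14 with vehicle and 6.43 on the array labelled freshly isolated, a difference of 0.48 ± 0.22 (adjusted p = 0.362). It was 0.27 with no background correction, 0.23 without vehicle 2, 0.31 without calcitriol 2 and 0.74 without vehicle 1. Like Eif2ak2 it was undetected on vehicle 2, and the calcitriol arrays lay above the vehicle arrays by a narrow gap.

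Gbp2 and Mx1 lay on the other side of vehicle. Gbp2, a guanylate-binding GTPase that responds mainly to interferon gamma, had log2 levels of 9.57 and 9.68 with calcitriol, 9.92 and 10.32 with vehicle and 9.68 on the array labelled freshly isolated (log2 difference -0.49 ± 0.18, adjusted p = 0.262). Mx1, a dynamin-like GTPase that blocks viruses, had 7.02 and 6.87 with calcitriol, 7.28 and 7.17 with vehicle and 7.14 on the array labelled freshly isolated (-0.27, adjusted p = 0.396). In both genes the calcitriol arrays were below the vehicle arrays without overlap, and neither difference passed.

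Ifitm1 and Ifitm3, membrane proteins that block the entry of viruses, were bright on all arrays. Ifitm1 had log2 levels of 13.32 and 13.30 with calcitriol, 13.30 and 13.16 with vehicle and 13.59 on the array labelled freshly isolated, and Ifitm3 had 11.83 and 11.78 with calcitriol, 11.66 and 11.65 with vehicle and 11.76 on that array. Their differences between calcitriol and vehicle were 0.08 and 0.14 (adjusted p = 0.809 and 0.628). Oas1a, an RNA-activated synthetase, was near the detection level at deposited intensities of 154 and 160 with calcitriol and 152 and 138 with vehicle, and its difference was 0.15 (adjusted p = 0.628). Bst2, or tetherin, which holds budding viruses at the cell surface, varied within the groups: its log2 levels were 6.96 and 6.13 with calcitriol and 6.52 and 7.07 with vehicle, with a difference of -0.25 ± 0.32 (adjusted p = 0.744) that changed sign when calcitriol 2 or vehicle 2 was left out. Ifitm, Oas and Mx genes have close paralogs, and whether their probes also bind those was not checked here.

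The 3 receptor genes were all lower with calcitriol in the fitted mean, with a median log2 difference of -0.29, and none passed. Ifngr2, the signalling chain of the interferon gamma receptor, had log2 levels of 10.79 and 10.82 with calcitriol, 11.12 and 11.07 with vehicle and 10.52 on the array labelled freshly isolated (-0.29 ± 0.13, adjusted p = 0.35). Ifngr1, the binding chain, had 10.88 and 10.85 with calcitriol, 11.17 and 11.08 with vehicle and 11.15 on the array labelled freshly isolated (-0.26 ± 0.13, adjusted p = 0.392). Both genes separated the calcitriol from the vehicle arrays by a gap larger than the spread within a group. Ifnar1, a chain of the type I receptor, was detected only on calcitriol 2 and vehicle 1, with deposited intensities of 112 and 147 on the calcitriol arrays and 158 and 132 on the vehicle arrays (-0.40 ± 0.26, adjusted p = 0.496). Its difference was -0.0389 without calcitriol 1, the array with its lowest level, -0.77 without calcitriol 2, and -0.20 with no background correction.

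Among the transcription factors, Irf9 and Irf3 lay above vehicle and Stat3 and Irf1 below it. Irf9, the DNA-binding part of the complex that type I interferon activates, had log2 levels of 8.77 and 8.44 with calcitriol, 7.98 and 8.07 with vehicle and 8.91 on the array labelled freshly isolated. Its difference between calcitriol and vehicle was 0.57 ± 0.16 (95% interval 0.18 to 0.97, adjusted p = 0.177). The vehicle arrays were the lowest 2 of the 5, and the array labelled freshly isolated was the highest. Irf3, which is activated by phosphorylation after RNA or DNA sensing, had 11.25 and 11.21 with calcitriol, 10.91 and 10.88 with vehicle and 11.09 on the array labelled freshly isolated, a small but even difference of 0.34 ± 0.13 (adjusted p = 0.274).

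Irf7, which amplifies type I interferon, had log2 levels of 8.73 and 8.46 with calcitriol, 8.35 and 8.34 with vehicle and 8.27 on the array labelled freshly isolated (0.25, 95% interval -0.12 to 0.62, adjusted p = 0.469). Stat3, a factor of the interleukin-6 family that also answers interferon, had 9.52 and 9.21 with calcitriol, 9.64 and 10.08 with vehicle and 9.58 on the array labelled freshly isolated (-0.49 ± 0.20, adjusted p = 0.326). Irf1, an early target of interferon gamma, had 10.76 and 10.84 with calcitriol, 11.03 and 10.99 with vehicle and 10.67 on the array labelled freshly isolated (-0.21, adjusted p = 0.48). In these 3 genes the calcitriol and vehicle arrays did not overlap. Stat2, the partner of Irf9, did overlap, with 7.49 and 7.28 with calcitriol and 7.52 and 7.36 with vehicle (-0.05, adjusted p = 0.896), and its sign turned when 1 array was left out. A second Stat2 probe was not detected.

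All 7 antigen processing genes were detected on all 5 arrays and none passed the test. The peptide transporter lay lower with calcitriol: Tap2 had log2 levels of 7.17 and 6.97 with calcitriol, 7.75 and 7.65 with vehicle and 7.16 on the array labelled freshly isolated. Its difference was -0.63 ± 0.14 (95% interval -0.98 to -0.28, adjusted p = 0.115), 1.55-fold lower, the next largest among the genes lower with calcitriol after Irf5. Tap1 had 7.86 and 7.85 with calcitriol, 8.15 and 8.34 with vehicle and 8.11 on the array labelled freshly isolated (-0.39 ± 0.14, adjusted p = 0.255). Both subunits of the transporter were thus below vehicle on both calcitriol arrays, without passing the threshold.

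The 3 immunoproteasome subunits lay slightly above vehicle. Psmb8 had log2 levels of 13.13 and 13.23 with calcitriol, 12.94 and 13.05 with vehicle and 13.30 on the array labelled freshly isolated (0.19, adjusted p = 0.545). Psmb9 had 10.43 and 10.60 with calcitriol, 10.32 and 10.39 with vehicle and 10.63 on the array labelled freshly isolated (0.16, adjusted p = 0.611). Psmb10 had 12.64 and 12.62 with calcitriol, 12.38 and 12.60 with vehicle and 12.62 on the array labelled freshly isolated (0.14, adjusted p = 0.673), and a second probe of it gave -0.04 (adjusted p = 0.904). The gap between the groups was smaller than the wider of the spreads within them for each subunit, and the 2 Psmb10 probes disagreed in sign.

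B2m, the invariant light chain of class I molecules, was nearly constant. Its log2 levels were 14.88 and 14.78 with calcitriol, 14.91 and 14.89 with vehicle and 14.72 on the array labelled freshly isolated, a difference of -0.07 with a 95% interval of -0.39 to 0.25 (adjusted p = 0.837). Its deposited intensities were 31340 and 29350 with calcitriol, 31510 and 26470 with vehicle and 29790 on the array labelled freshly isolated. Tapbp, or tapasin, which loads peptides on class I molecules, had 9.72 and 9.73 with calcitriol, 10.00 and 9.83 with vehicle and 9.65 on the array labelled freshly isolated (-0.19, adjusted p = 0.544).

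**Figure D4:**
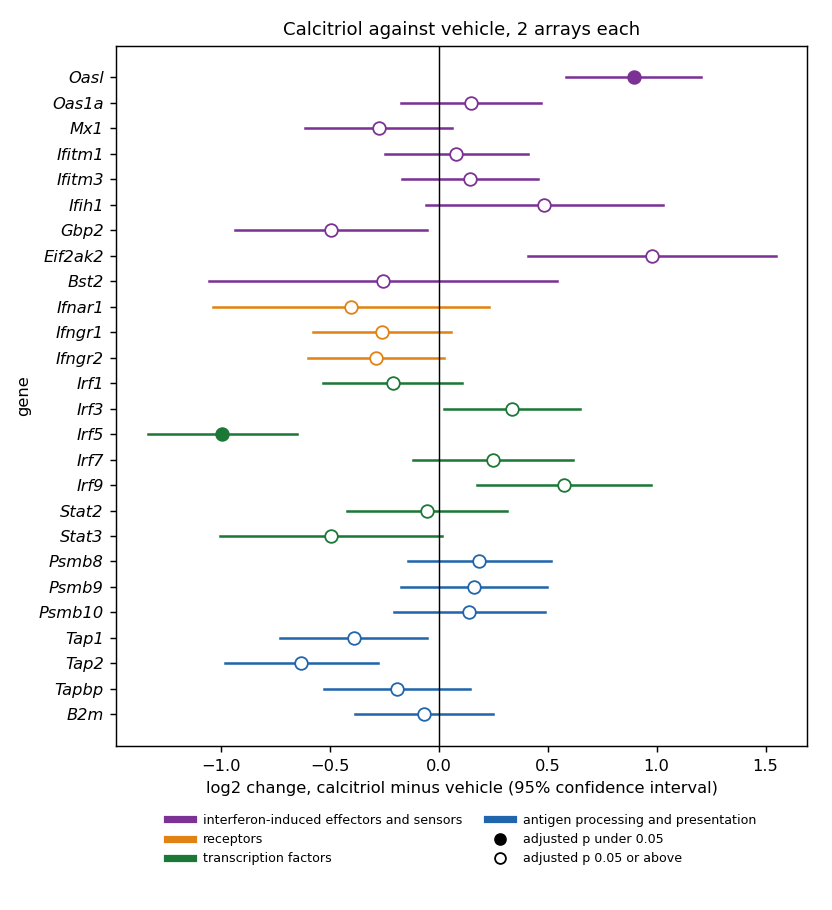
Log2 change of calcitriol against vehicle for each of the 26 detected genes, ordered by role, with 95% intervals from the limma fit. Filled points are the genes past the adjusted threshold, Oasl at 0.89 and Irf5 at -0.99, and the intervals of most other genes span 0.

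Although few genes passed, the 2 groups often did not overlap. In 11 of the 26 genes (42.3%) both calcitriol arrays were above both vehicle arrays, beside 23.3% of all probes, and in another 11 (42.3%) both were below, beside 24.4% of all probes. The genes above were Oasl, Oas1a, Ifitm3, Ifih1, Eif2ak2, Irf3, Irf7, Irf9 and the 3 immunoproteasome subunits. Those below were Mx1, Gbp2, Ifngr1, Ifngr2, Irf1, Irf5, Stat3, Tap1, Tap2, Tapbp and B2m. Some gaps were narrow, as in B2m (14.88 on calcitriol 1 and 14.89 on vehicle 2) and Psmb10 (12.62 on calcitriol 2 and 12.60 on vehicle 2). Both directions occurred among the effectors, the transcription factors and the antigen processing genes, and no test was made of these counts. The genes were chosen with earlier results of these data known, and each is counted by its probe of highest mean. The shares beside them cover all kept probes, so the sets are not alike. By role, the median log2 difference was 0.14 for effectors and sensors, -0.05 for transcription factors and -0.07 for antigen processing.

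**Figure D5:**
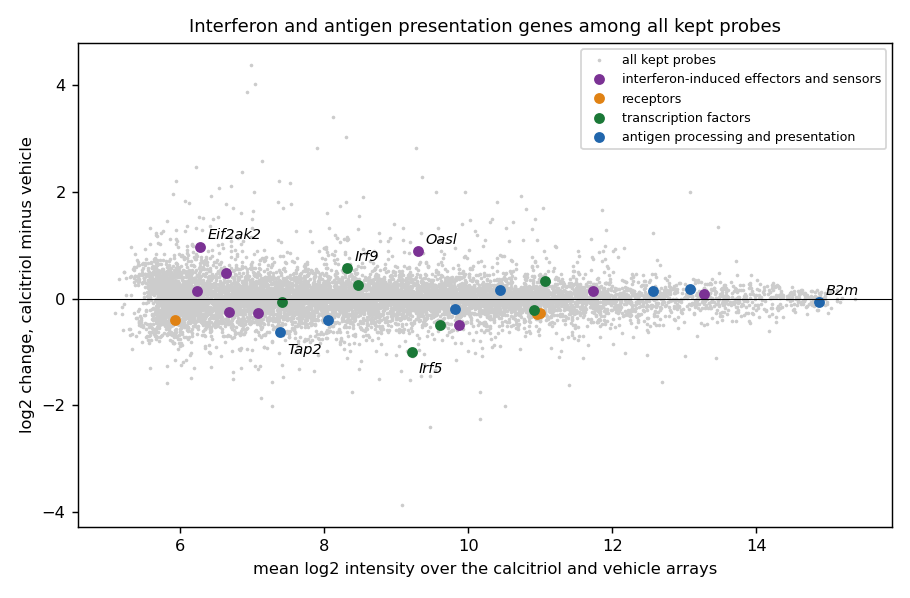
Log2 change of calcitriol against vehicle for all 9737 kept probes (grey) and the 26 detected genes (coloured by role), plotted against mean normalized log2 intensity. The 26 genes lie on both sides of 0 and cover nearly the whole range of brightness.

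Vehicle was then set against the array labelled freshly isolated, a comparison with 1 array on one side and the same vehicle arrays as above. A single array gives no spread of its own. Standard errors and p-values of both comparisons with that array therefore rest on the spread within the calcitriol and vehicle groups. None of the 26 genes passed, beside 0.483% of all probes higher and 1.05% lower, and 5 had an unadjusted p under 0.05 (19.2%, beside 13.9% of all probes). Irf5 was 2.05-fold higher in vehicle (log2 difference 1.04 ± 0.17, 95% interval 0.62 to 1.45, adjusted p = 0.06). Irf9 was 1.84-fold lower in vehicle (-0.88 ± 0.20, adjusted p = 0.124). Both passed with no background correction, with normexp, with the authors' value table and among probes detected on all 5 arrays (adjusted p = 0.00465 to 0.0175 for Irf5 and 0.0266 to 0.0464 for Irf9), and with a variance trend.

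The other 3 genes with an unadjusted p under 0.05 were Ifngr2 (0.58 ± 0.15, adjusted p = 0.182), Tap2 (0.54 ± 0.17, adjusted p = 0.255) and Oasl (-0.41 ± 0.15, adjusted p = 0.328). Bst2 was undetected on the array labelled freshly isolated. Its vehicle mean lay 1.57-fold above the lowest detected level of that array. That value rests on vehicle 2 more than on vehicle 1 (log2 levels of 7.07 and 6.52). The fitted log2 difference of Bst2 was 0.81, and its 95% interval of -0.16 to 1.79 holds both signs (adjusted p = 0.442 by limma). The fitted difference was 0.54 without vehicle 2 and 1.09 without vehicle 1. Both vehicle arrays lay above the array labelled freshly isolated in 13 of the 26 genes (beside 36.9% of all probes) and below it in 10 (38.5%, beside 36.6%). The median difference of the 26 genes was 0.07, beside 0.006 over all kept probes. Markers of other cells that passed in this comparison were Ptprc, higher in vehicle (1.59 ± 0.22, adjusted p = 0.0393), and Cd69 and Ptprcap, lower in vehicle and undetected there (adjusted p = 0.0341 and 0.0243). All 8 detected sinusoidal endothelial markers had a higher fitted mean in vehicle, with the sums given above. Among them Emcn, an endothelial sialomucin, had deposited intensities of 236 and 204 with vehicle and 138, not detected, on the array labelled freshly isolated (adjusted p = 0.0243 by limma). The part of such cells in the differences above was not tested.

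Calcitriol against the array labelled freshly isolated gave no gene past the threshold, as over all probes, where 0% were higher and 0% lower. Only Oasl had an unadjusted p under 0.05 (1 of 26, 3.85%, beside 6.67% of all probes), with a log2 difference of 0.48 ± 0.15 (adjusted p = 0.621). Irf5 differed by 0.04 ± 0.17 (adjusted p = 0.987). The array labelled freshly isolated lay nearer to the calcitriol mean than to the vehicle mean in 18 of the 26 genes (69.2%), beside 59.5% of all probes. Oasl, the 2 sensors Ifih1 and Eif2ak2, Irf7, Tap1, Mx1, Oas1a and Ifngr1 were the exceptions. The calcitriol and vehicle arrays enter 2 comparisons each, so the 3 sets of differences are not independent.

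The rest of the pathway was read from lists of 165 further genes, of which 114 have a named probe and 82 were detected. With calcitriol 0 of the 82 passed as higher and 1 as lower, Tlr7, while 16 (19.5%) had an unadjusted p under 0.05, beside 15.8% of all probes. The median log2 difference was 0.07, with 50 genes positive and 32 negative, beside 0.0044, 4938 and 4798 over all kept probes. Tlr7, the endosomal receptor for single-stranded RNA, signals through Irf5 and Irf7. Its intensity was 175 and 204 on the calcitriol arrays, 393 and 261 on the vehicle arrays and 172 on the array labelled freshly isolated. The log2 change was -1.25 ± 0.18 (adjusted p = 0.0375), and vehicle was higher than the array labelled freshly isolated by 1.67 ± 0.22 (adjusted p = 0.0341). Tlr7, like Irf5, was highest on the 2 vehicle arrays.

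Next in order of p were Socs2, Ptpn1 and Cd86, which did not pass. Socs2, a suppressor of cytokine signalling that acts on growth hormone receptors, had intensities of 482 and 454 with calcitriol, 295 and 248 with vehicle and 440 on the array labelled freshly isolated (0.89 ± 0.15, adjusted p = 0.0611). Ptpn1, a phosphatase of Janus kinases, had 1913 and 2315 with calcitriol, 1320 and 980 with vehicle and 2438 on the array labelled freshly isolated (0.73 ± 0.13, adjusted p = 0.067). Cd86, a costimulatory ligand of antigen-presenting cells, had 474 and 538 with calcitriol, 311 and 297 with vehicle and 608 on the array labelled freshly isolated (0.77 ± 0.16, adjusted p = 0.105). In all 3 the vehicle arrays had the lowest deposited intensities.

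For vehicle against the array labelled freshly isolated, Tlr7 was the only 1 of the 82 to pass, and 10 (12.2%) had an unadjusted p under 0.05, beside 13.9% of all probes. The 3 smallest p-values after Tlr7 were those of Ptpn1 (-0.75 ± 0.16, adjusted p = 0.112), Cd86 (-0.90 ± 0.20, adjusted p = 0.124) and Lgals3bp, a secreted glycoprotein induced by interferon (-0.75 ± 0.19, adjusted p = 0.173). Calcitriol against the array labelled freshly isolated gave none past the threshold and 1 with an unadjusted p under 0.05.

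The interferon genes with a named probe, Ifna4, Ifnb1, Ifng and Ifnk, were detected on no array, and neither were the chemokines Cxcl10 and Cxcl11, which interferons induce. Cxcl9, a related chemokine, was detected on calcitriol 2 alone, with intensities of 113 and 160 with calcitriol, 133 and 126 with vehicle and 151 on the array labelled freshly isolated (log2 difference of calcitriol against vehicle 0.06, adjusted p = 0.942). Ifnar2 and Tyk2 have no named probe. Of the antigen presentation genes beyond the 40, 31 of 41 with a named probe were detected. The 9 detected class I genes of the rat RT1 complex ranged from -0.06 (RT1-S3) to 0.37 (RT1-CE7) in log2 difference between calcitriol and vehicle, with 8 positive. Class II molecules present to helper T cells and mark professional antigen-presenting cells. The 5 detected class II genes, of which RT1-DMa and RT1-DMb encode chains that help to load the peptide and do not present it, ranged from -0.51 (RT1-Ba) to 0.06 (RT1-Db1), with 4 negative. None of them passed (smallest adjusted p 0.324 in class I and 0.17 in class II, by limma). The class I RT1 genes include close copies that 1 probe may not tell apart, which was not checked here.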

How the data were processed

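Total RNA was labelled as biotinylated cRNA and hybridised to Illumina rat bead arrays of 1 chip, per the labels, and handled in GenomeStudio 2011.1, per the submitters' processing notes. The authors deposited for each probe and array, per the file headers, a mean intensity, a bead standard error (a signal spread), a count of beads and a detection p-value. An aligner and a probe build are not given in the sources used here. Each group had its own positions on the chip, so position and group cannot be told apart.

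Deposited intensities were corrected and quantile-normalized with limma's neqc (limma 3.58.1, R 4.3.3, offset 16), which understates changes of dim probes, and put on the log2 scale. Probes detected at p under 0.01 on at least 1 array were kept (9737 of 22523). The 3 group means were fitted together (lmFit, eBayes, 2 residual and 3.65 prior degrees of freedom), with Benjamini-Hochberg adjustment over 9737 probes and a threshold of 0.05. The fit was tested on simulated data. Genes with several probes took the one of highest mean. Overlap of groups refers to normalized log2 levels.

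The 40 genes and all lists were chosen with earlier results of these data known. Text names all 40 genes, further pathway genes past the threshold or with the 3 smallest p, and markers past the threshold or brightest. Undetected ligands and markers, chemokines, other markers that did not pass, Ifnar2, Tyk2 and the RT1 genes were named after their values were seen. Same-numbered arrays deviated from their group means with a correlation of -0.106, which gave no sign of pairing by number. With 2 arrays per treatment group it is a single value, and it cannot decide whether same-numbered arrays were paired. The value table deposited by the authors holds linear intensities with ranks equal to the signals (rho 1) and medians of 115.7 to 115.9, a quantile normalization as read from its values, and served as an alternative.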

Additional observations from a re-analysis of the deposited data

How the results depend on the processing

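The limits are 2 arrays per treatment group and 1 array labelled freshly isolated and untreated, on which Cyp24a1 was detected. A further limit is a detection level at intensities of 137 to 159, near which changes are compressed. For calcitriol against vehicle, 2 of the 26 genes passed, and the count was 1 with detection p under 0.05 (Irf5), 0 with the replicate block, 2 with the crossed replicate block (chosen after seeing the data), 8 at unadjusted p, and 0 to 2 when 1 array was left out (0 without any 1 of the 4 day-3 arrays, which leaves 1 residual degree of freedom, and 2 without the array labelled freshly isolated). With the replicate block the adjusted p was 0.0771 for Oasl and 0.0595 for Irf5, and 129 probes passed in place of 178. Tap2 also passed among probes detected on all 5 arrays, and Irf9 with a variance trend. Over all alternatives the log2 change was 0.79 to 0.92 for Oasl and -1.08 to -0.88 for Irf5.

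For vehicle against the array labelled freshly isolated the count of 0 became 2 (Irf5 and Irf9) with no background correction, with normexp, with the authors' value table and among probes detected on all 5 arrays, 3 with a variance trend (Ifngr2 added), 1 at adjusted p under 0.10 (Irf5) and 5 at unadjusted p. For calcitriol against that array 0 became 1 at unadjusted p. Probes passing for calcitriol against vehicle were 488 with no background correction and with the value table, 416 with normexp, 325 when detected on all 5 arrays, 684 with a variance trend, 342 at adjusted p under 0.10, 0 without calcitriol 1 or 2, and 73 and 83 without vehicle 1 and 2. For vehicle against the array labelled freshly isolated they were 149 at first, 401, 364, 282, 506 and 283 in the same settings, 0 without calcitriol 1 or 2, and 60 and 57 without vehicle 1 and 2. For calcitriol against that array 0 became 30 with no background correction and with the value table, 13 with normexp and 51 with a variance trend.

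Signs turned in these differences, none of which passed the test. Leaving out 1 array, calcitriol against vehicle ranged from -0.67 to 0.16 for Bst2 and from -0.16 to 0.0533 for Stat2. Vehicle against the array labelled freshly isolated ranged from -0.0078 to 0.15 for Stat2, from -0.29 to 0.22 for Ifih1 and from -0.0633 to 0.0191 for Ifngr1, was 0.0309 for Oas1a and 0.075 for Ifih1 with scaling to the array median, and was 0.0372 for Psmb10 with the mean of its probes. Calcitriol against that array ranged from -0.11 to 0.0025 for Gbp2, -0.0875 to 0.12 for Stat2, -0.23 to 0.50 for Ifnar1 and -0.19 to 0.0102 for Tap2, and was -0.0116 for Psmb10 with scaling to the array median. The cause of these changes was not tested.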
